A study of Mus musculus with 7 samples.

Results

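The genes described here are 40 genes of DNA replication and cell division, chosen as a list of symbols, which were all found among the 22552 symbols of an expression table of mouse skin. Of them, 16 act in or before S phase, when DNA is copied, and 24 act in mitosis, when the copies are parted. The table holds 7 RNA-seq libraries of skin cells purified by flow sorting at postnatal day 50 from mice of the strain labelled CD1/C3H, with 1 library per group. Wild-type (Wt/Wt, here WT) mice gave ear epidermis, dorsal epidermis, ear dermis, dorsal dermis and tail dermis, and mice with 1 copy of the Koa allele (Wt/Koa), a dominant allele that carries an inversion on chromosome 15 and gives hairy ears, gave ear epidermis and ear dermis. All groups share strain, age and sorting. The labels do not say how many animals went into a library, and name the tail cells as dermal in the sample title alone.

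In skin, dividing cells sit mainly in the basal layer of the epidermis and in growing hair follicles, while most fibroblasts of the adult dermis are at rest. Genes of S phase are switched on by E2F factors once the pocket proteins release them, and genes of mitosis follow later, driven by B-Myb, FoxM1 and the MuvB complex through CCAAT boxes and a short element called the cell cycle homology region (CHR). Because the transcripts are made mainly in cycling cells, their level in bulk tissue is widely used as a proxy of proliferation. In a bulk library, however, fewer cycling cells and less RNA per cycling cell cannot be told apart.

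RefSeq promoter windows (GRCm38.p6, from 250 bases before to 50 after the start) matched 33 of the 40 genes by symbol, with Mcm4, Ccne2, Ccna2, Cdc25c, Aurkb, Kif20a and Tpx2 unmatched. The motifs searched on both strands were the CCAAT box (CCAAT), the CHR (TTTGAA) and E2F-like sites (TTCCCGC, its variant TTCGCGC, the form TTGCCGC and lastly TTGGCGC, of which neighbours on opposite strands can overlap). A CCAAT box occurred in 17 of 20 mitosis windows (85.0%), in 9 of 13 S phase windows (69.2%) and in 37.9% of all 27025 windows of the same length. The CHR letters occurred in 14 of 20 mitosis windows (70.0%), 2 of 13 S phase windows (15.4%) and 18.1% of all windows. E2F-like letters went the other way, with 3 of 20 (15.0%), 7 of 13 (53.8%) and 9.69%. Among the 15163 windows of genes in the expression table, the CCAAT box, CHR and E2F-like shares were 39.2%, 15.6% and 12.7%. The mitosis share of E2F-like letters is near the last of these. All 14 mitosis windows with CHR letters also held a CCAAT box, as did the 2 S phase windows with CHR letters. The pair thus occurred in 70.0% of mitosis windows, 15.4% of S phase windows and 7.12% of all windows. These counts describe letters in a window, not factor binding.

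Shown here are the 150 bases upstream of the start for 5 mitosis genes (Cdk1, Ccnb2, Cdc20, Top2a and Kif11) and then 3 S phase genes (Mcm5, Mcm6 and Rrm1), chosen after their motifs were seen to display both types. Each runs 5′ to 3′ along the gene, ending at the base before the start used, and capitals mark the searched motifs on either strand. For Mcm5 and Top2a that start lies within the gene as listed, which begins at 75109468 for Mcm5 and ends at 99024199 for Top2a (minus strand). Their stretches thus take in some bases of the gene.
Cdk1, chr10:69352913-69353062, minus strand: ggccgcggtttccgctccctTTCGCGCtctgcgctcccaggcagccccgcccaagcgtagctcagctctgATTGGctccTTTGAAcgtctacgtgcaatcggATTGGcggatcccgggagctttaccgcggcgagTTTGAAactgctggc
Ccnb2, chr9:70421555-70421704, minus strand: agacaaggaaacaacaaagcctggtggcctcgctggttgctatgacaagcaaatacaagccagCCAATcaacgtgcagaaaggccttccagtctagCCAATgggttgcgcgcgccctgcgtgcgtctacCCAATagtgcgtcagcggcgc
Cdc20, chr4:118437344-118437493, minus strand: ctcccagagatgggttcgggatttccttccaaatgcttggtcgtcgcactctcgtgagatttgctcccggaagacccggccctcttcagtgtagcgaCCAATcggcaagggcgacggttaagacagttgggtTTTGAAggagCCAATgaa
Top2a, chr11:99024190-99024339, minus strand: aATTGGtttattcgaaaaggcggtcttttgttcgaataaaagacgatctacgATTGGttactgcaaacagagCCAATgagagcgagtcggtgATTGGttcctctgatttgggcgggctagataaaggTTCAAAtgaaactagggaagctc
Kif11, chr19:37376232-37376381, plus strand: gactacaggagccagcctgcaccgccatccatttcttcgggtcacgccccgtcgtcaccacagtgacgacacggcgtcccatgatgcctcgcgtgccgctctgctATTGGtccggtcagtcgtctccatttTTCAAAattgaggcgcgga
Mcm5, chr8:75109359-75109508, plus strand: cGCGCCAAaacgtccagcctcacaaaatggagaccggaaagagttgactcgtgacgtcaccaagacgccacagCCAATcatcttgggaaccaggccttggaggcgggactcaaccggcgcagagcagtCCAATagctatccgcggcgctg
Mcm6, chr1:128359706-128359855, minus strand: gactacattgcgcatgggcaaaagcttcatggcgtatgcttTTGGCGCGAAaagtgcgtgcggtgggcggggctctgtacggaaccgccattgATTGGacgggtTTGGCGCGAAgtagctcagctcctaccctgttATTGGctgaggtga
Rrm1, chr7:102441545-102441694, plus strand: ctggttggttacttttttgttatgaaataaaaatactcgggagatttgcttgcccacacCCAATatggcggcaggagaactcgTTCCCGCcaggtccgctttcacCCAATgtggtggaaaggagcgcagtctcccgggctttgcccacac
The mitosis stretches of Cdc20, Top2a and Kif11 each hold a CCAAT box and 1 CHR match, Cdk1 holds 2 CHR matches and an E2F-like site, Ccnb2 holds 3 CCAAT boxes and no CHR match (the 2 CHR matches of its window are not within the stretch shown), and the 3 S phase stretches hold CCAAT boxes and E2F-like sites without a CHR match.

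Levels are given in FPKM, the unit the authors deposited, in which fragments are divided by transcript length and by library size, so that genes can be compared with each other. Whole fragments leave steps in low FPKM values, from which the fragment number of 6 libraries was recovered as 31600000 to 40300000 (rounded); the depth of the tail library is unknown. The 40 genes rest on 49 to 3936 fragments each in ear dermis of either genotype and on 160 to 20757 in the epidermal libraries. Beside a ratio stands its exact 95% counting interval in brackets, which leaves out the variation between animals and library preparations. With 1 library per group no test between groups can be made and no difference has a replicate check. Of the markers of layer, Krt5, a keratin of basal keratinocytes, stood at 5800, 7880 and 6880 FPKM in WT ear, Koa ear and WT dorsal epidermis, and at 267, 787 and 2380 FPKM in the matching dermal libraries. The fibroblast receptor Pdgfra stood at 55.3 to 99.3 FPKM in these dermal libraries and at 0.210 to 0.268 FPKM in the epidermal ones. The dermal libraries thus held keratinocyte RNA, most of it in dorsal dermis, while the epidermal libraries held little from fibroblasts.

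All 40 genes were higher in every epidermal library than in every dermal library. Their median level was 28.1 FPKM in WT ear epidermis, 21.1 in Koa ear epidermis and 17.0 in WT dorsal epidermis, against 4.5 in WT ear dermis, 5.35 in Koa ear dermis, 8.58 in WT dorsal dermis and 2.03 in WT tail dermis. The order of the regions was thus turned around between the layers: the ear of WT mice had the highest median in epidermis and the lowest in dermis outside the tail. With libraries scaled to equal totals, 33 of the 40 genes were higher in every epidermal library than in the dermal libraries of ear and back, and 37 with scaling by median ratio. How many of all genes are higher in every epidermal library was not counted.

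**Figure D1:**
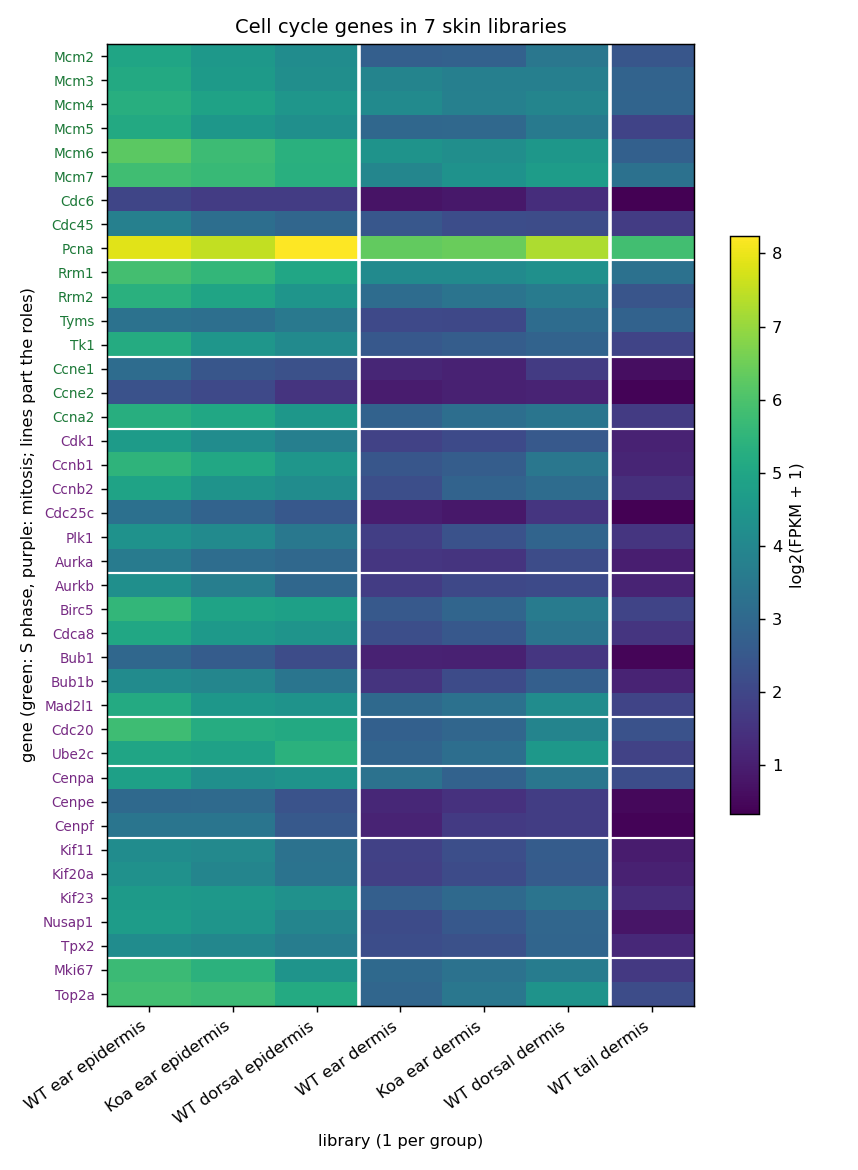
Level of each of the 40 genes (rows, log2(FPKM + 1) as colour) in each of the 7 libraries (columns, 1 per group), with green names for S phase and purple names for mitosis genes. The 3 epidermal columns are brighter than the dermal columns in every row, and the tail column is the darkest in 39 rows.

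The first comparison was between the layers of the WT ear. Genes were counted as higher or lower where they differed by at least 1 on the log2(FPKM + 1) scale, among genes with at least 1 FPKM in either library. By this size rule 40 of 40 were higher in WT ear epidermis than in WT ear dermis, with a median difference of 2.18, where 14.4% of all 13840 genes were higher, 21.3% were lower and the median of all genes was 0.09. With equal totals 38 of 40 genes were higher, where 10.1% of all genes were higher and 25.2% lower. In the linear values the ratio of epidermis to dermis ran from 2.34 for Mcm4 to 9.76 for Ccnb1, with a median of 5.82.

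Mitosis genes stood further apart between the layers of the WT ear than S phase genes, with a median ratio of 7.70 against 4.09. Mki67, the proliferation marker Ki-67 that coats mitotic chromosomes, stood at 52.2 FPKM in WT ear epidermis and 7.12 in dermis, a ratio of 7.34 (7.04 to 7.65). Top2a, the topoisomerase that untangles sister chromatids, had 56.7 FPKM in epidermis and 6.67 FPKM in dermis (ratio 8.5, 8.01 to 9.02). Ccnb1, cyclin B1, the partner of Cdk1 at mitotic entry, had 43.5 and 4.46 FPKM (ratio 9.76, 8.78 to 10.9). The kinase Cdk1 itself had a ratio of 8.99 (7.33 to 11.1), and Birc5, survivin of the chromosomal passenger complex, a ratio of 9.69 (8.09 to 11.7). Among mitosis genes the narrowest ratio was that of Cenpa, the histone variant of centromeres, at 3.02 (2.71 to 3.38).

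The replicative helicase was uneven among its subunits. Mcm2 to Mcm7 form a hexamer with 1 copy of each, loaded onto origins with the help of Cdc6 and activated with Cdc45. In WT ear epidermis their levels ran from 30.3 FPKM (Mcm2) to 74.0 FPKM (Mcm6), and in WT ear dermis from 5.65 (Mcm2) to 20.2 (Mcm6). The dermal level came to 42.7% of the epidermal level for Mcm4 and 40.9% for Mcm3, but to 20.2% for Mcm5 and 18.7% for Mcm2. Pcna, the clamp that holds the polymerase on DNA, was the most abundant gene of the list in every library, at 234 FPKM in WT ear epidermis and 79.5 FPKM in WT ear dermis. Genes of nucleotide supply spread as widely as the helicase: Tyms, thymidylate synthase, stood in dermis at 35.8% of its epidermal level, the ribonucleotide reductase subunits Rrm1 and Rrm2 at 28.3% and 19.7%, and thymidine kinase Tk1 at 13.2%. Of the cyclins, Ccne1 and Ccne2, which act at the entry to S phase, stood at 16.5% and 22.9%, and Ccna2, which acts from S phase to mitosis, at 16.1%.

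**Figure D2:**
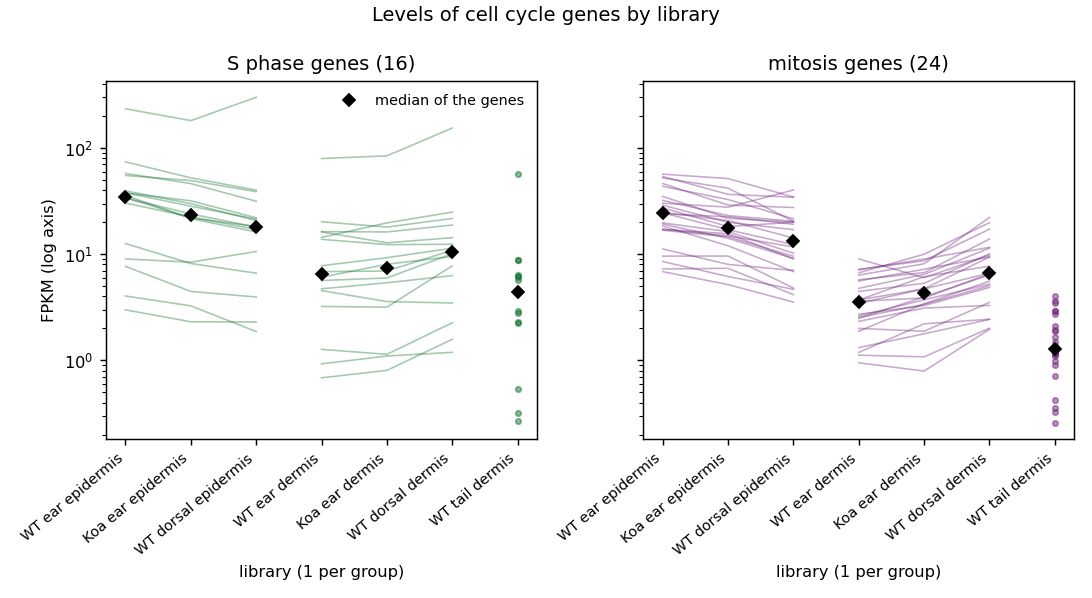
FPKM on a log axis of the 16 S phase genes (left) and the 24 mitosis genes (right) in the 7 libraries, with 1 line per gene within a layer, dots for the tail and a diamond at the median of the genes. From left to right the medians descend over the epidermal libraries (34.9, 23.1 and 18.1 FPKM for S phase, 24.2, 17.6 and 13.2 for mitosis) and ascend over the dermal libraries of ear and back (6.46, 7.49 and 10.5 for S phase, 3.53, 4.34 and 6.58 for mitosis).

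The layers were closer in the other regions. In the Koa ear 38 of 40 genes were higher in epidermis by the size rule and none lower, with a median difference of 1.65, where 12.7% of all 13954 genes were higher and 20.4% lower (median of all genes 0.11). The 2 others, Mcm3 and Cdc6, differed by 0.90 and 0.88 on the log2 scale, and the median linear ratio was 3.89. On the back 8 of 40 were higher in epidermis and none lower, with a median difference of 0.77, where 8.27% of all 13896 genes were higher and 16.1% lower (median of all genes 0.14). These 8 were Tk1, Ccna2, Cdk1, Ccnb1, Ccnb2, Birc5, Cdca8 and Cdc20, all but Tk1 and Ccna2 mitosis genes. The call on the back depends on scaling, with 2 genes past the size rule under median ratio scaling and none with equal totals, where Mcm3, Cdc6, Tyms and Mad2l1 turned to higher in dermis. Of all genes, 1.81% were then higher in dorsal epidermis and 21.5% lower with equal totals, and 4.62% and 18.3% by median ratio. Under both scalings the count of higher genes in the list was thus near the general share. Relative to the median of all genes the median difference on the back was 0.63 as deposited, 0.61 with equal totals and 0.63 by median ratio.

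In values, Mki67 stood at 41.8 FPKM in Koa ear epidermis and 9.0 in Koa ear dermis, and at 20.4 and 11.6 FPKM in dorsal epidermis and dermis. Its ratio of epidermis to dermis was therefore 4.65 (4.47 to 4.83) in the Koa ear and 1.75 (1.68 to 1.83) on the back, below the 7.34 of the WT ear. The widest ratio on the back was that of Tk1, 16.2 against 6.28 FPKM, at 2.58 (2.23 to 3.0). The narrowest was that of Mad2l1, a protein of the spindle checkpoint, 20 against 17.2 FPKM, at 1.16 (1.06 to 1.28).

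Keratinocyte RNA in the dermal libraries moved with these ratios. The 8 markers of basal keratinocytes (Krt5, Krt14, Krt15, Itga6, Itgb4, Trp63, Col17a1 and Lamb3) had dermal levels of 7.16% of the epidermal ones, as a median, in the WT ear, 10.7% in the Koa ear and 37.7% on the back. None of the 8 was at 0 in any library, and their summed level was 775, 1930 and 6390 FPKM in the 3 dermal libraries. The cell cycle genes stood at a median of 17.2%, 25.7% and 55.4%. In the WT ear 38 of the 40 genes lay above the highest basal marker (10.6%, Trp63), the others being Ccnb1 (10.2%) and Birc5 (10.3%), with Cdc20 equal to it after rounding (10.6%). In the Koa ear 39 lay above the highest marker (13.9%, Itga6), all but Cdc25c (12.9%), a phosphatase that activates Cdk1. On the back 30 of 40 lay above the highest marker (47.6%, Itga6). S phase genes lay above mitosis genes in each region, with medians of 24.6% against 13% in the WT ear, 34.6% against 23.4% in the Koa ear and 59.3% against 50.5% on the back, and the classes overlapped in all 3. These percentages move with the scaling of the libraries, but cell cycle genes and markers of 1 region move by the same factor. What part of the dermal levels came from keratinocyte RNA was not tested.

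**Figure D3:**
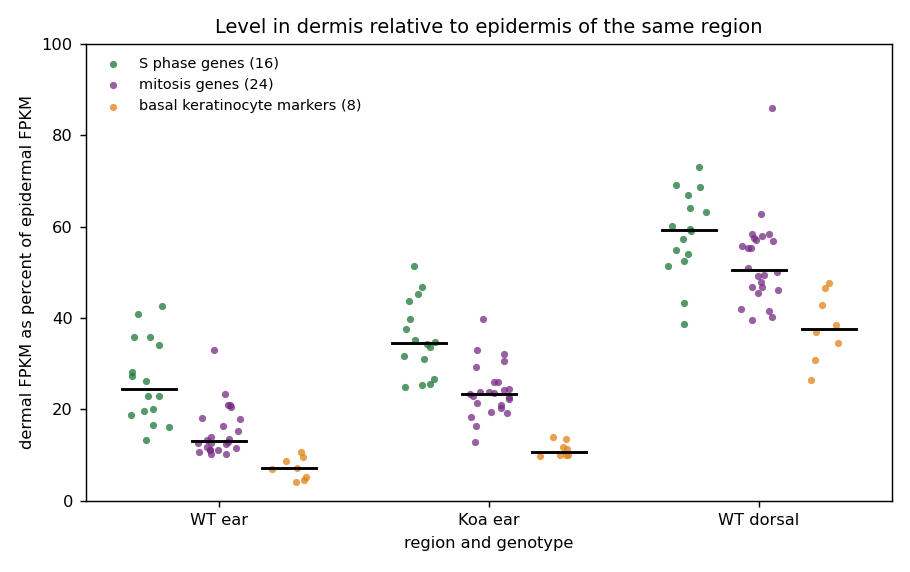
Dermal FPKM as a percent of epidermal FPKM of the same region (vertical axis) for 16 S phase genes, 24 mitosis genes and 8 basal keratinocyte markers in WT ear, Koa ear and WT back; each point is a gene and each bar the median. S phase genes have the highest medians (24.6%, 34.6% and 59.3%) and basal markers the lowest (7.16%, 10.7% and 37.7%).

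The next comparison was between body regions within a layer. In epidermis 37 of the 40 genes were lower on the back than in the WT ear, as were 6379 of all 12500 genes. The median difference of the list was -0.78, where the median of all genes was -0.02. By the size rule 3 were lower and none higher. Of all 12500 genes 5.47% were lower and 11.5% higher, so this count of 3 is near the general share. These 3 were Mki67 (20.4 against 52.2 FPKM, a ratio of 0.391, 0.380 to 0.402), Aurkb, the kinase of the chromosomal passenger complex (6.86 against 18.4 FPKM, 0.373, 0.330 to 0.420), and Tk1 (16.2 against 35.9 FPKM, 0.453, 0.413 to 0.496). With equal totals the split changes, to 32 genes lower and none higher, where 16.1% of all genes were lower and 6.59% higher, since the values of dorsal epidermis sum to 868855 FPKM and those of WT ear epidermis to 620232. That scaling shifts the median of all genes to -0.46, and relative to it the median of the list was -0.74, against -0.76 as deposited.

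Not all members followed the list. Pcna stood higher in dorsal than in WT ear epidermis, at 300 against 234 FPKM (ratio 1.28, 1.25 to 1.31). So did Ube2c, the ubiquitin-conjugating enzyme of the anaphase-promoting complex, at 40.2 against 30.2 FPKM (1.33, 1.22 to 1.46), and Tyms at 10.6 against 9.02 FPKM (1.18, 1.08 to 1.29). All 3 turned to lower on the back with equal totals. They are the same 3 genes that had their highest level of all libraries in dorsal epidermis, while 35 had it in WT ear epidermis and 2, the kinetochore proteins Cenpe and Cenpf, in Koa ear epidermis. Between WT and Koa ear epidermis Cenpe stood at 7.26 and 7.36 FPKM and Cenpf at 9.59 and 9.60 FPKM, and the counting intervals of both ratios hold 1 (0.954 to 1.08 for Cenpe, 0.958 to 1.05 for Cenpf).

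In dermis the direction was the other way, with 37 of 40 genes higher on the back than in the WT ear. So were 6690 of all 14234 genes. The median difference of the list was 0.65, where the median of all genes was -0.05. By the size rule 10 were higher and none lower, where 11.7% of all 14234 genes were higher and 7.05% lower. Of the 10, 9 were mitosis genes, led by Ube2c at 22.2 against 6.35 FPKM (ratio 3.50, 2.95 to 4.18) and Top2a at 19.8 against 6.67 FPKM (2.97, 2.78 to 3.18). The others were Ccnb1, Plk1, Birc5, Cdca8, Bub1b, Mad2l1 and Cdc20 and, of the S phase genes, Tyms at 7.76 against 3.22 FPKM (2.41, 2.11 to 2.74). With equal totals 3 were higher, where 9.45% of all genes were higher and 10.9% lower, so that count does not exceed the general share.

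Subunits of the helicase stood apart from this order in dermis. Mcm3 was at 12.4 FPKM on the back and 13.8 in the WT ear (ratio 0.896, 0.828 to 0.970), Mcm4 at 14.3 and 16.2 FPKM, and Cdc45 at 3.47 and 4.54 FPKM (0.764, 0.642 to 0.912), and these were the 3 genes lower on the back. Mcm2, by contrast, was at 10.1 and 5.65 FPKM and Mcm7 at 24.9 and 14.4 FPKM. Mcm6 (21.7 and 20.2 FPKM), Rrm1 (18.8 and 16.3 FPKM) and Cenpa (9.81 and 9.02 FPKM) were higher on the back as deposited and lower with equal totals.

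Markers of some other cells and of stress moved with the dermal comparison of back and ear. All 8 basal keratinocyte markers were higher in dorsal dermis by the size rule, where 11.7% of all genes were higher and 7.05% lower. In epidermis 1 of the 8 was higher and none lower, where these shares were 11.5% and 5.47%. All 4 measured markers of T cells and Langerhans cells (Cd3e, Cd3g, Cd207 and Epcam) were higher in dorsal dermis too, with a summed level of 225 against 52.4 FPKM. Epcam does not mark these cells alone here. It stood at 58.4 to 154 FPKM in the epidermal libraries, where Cd3e, Cd3g and Cd207 lay at 0.0604 to 1.79 FPKM. All 8 stress genes (such as Fos, Jun and Hspa1a) were higher in dorsal dermis, with a summed level of 4390 against 360 FPKM, and in dorsal epidermis, with 8510 against 697 FPKM. None of these markers was at 0 in these libraries. Markers of growing hair epithelium were higher on the back for 7 of the 8 at 1 FPKM or more in dermis, with a summed level of 33.9 against 2.77 FPKM and Krt31 at 0 in WT ear dermis, and for 5 of 9 in epidermis, with 57.2 against 28.8 FPKM. In WT ear dermis all but Msx2 (1.02 FPKM) lay under 1 FPKM, as did Krt71, Krt73, Krt31 and Krt85 in WT ear epidermis. Those counted were kept through the back alone and could not come out lower by the size rule. Hair follicle stem cell markers, a list of 5 that shares Krt15 with the basal list, were higher for 3 of 5 in dorsal dermis and 5 of 5 in dorsal epidermis. Mast cell markers were lower for 5 of 6 in dorsal dermis, with a summed level of 85.2 against 424 FPKM. Other lists did not move as a set there. Of 6 myeloid markers 1 was higher and 1 lower, and of 8 fibroblast markers 2 were higher and 2 lower. None of 5 endothelial markers passed the size rule. The part of all these in the region differences was not tested.

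The third comparison was between Koa and WT ears. No gene of the list passed the size rule in either layer, where 1.71% of all 13690 genes were higher and 1.07% lower in dermis, and 2.15% of all 12062 genes were higher and 0.854% lower in epidermis. In ear epidermis 38 of 40 genes stood lower in Koa, as did 6136 of all 12062 genes. The median difference of the list was -0.40, where the median of all genes was -0.01. In ear dermis 28 of the 38 genes at 1 FPKM or more stood higher in Koa and 10 lower. Of all 13690 genes, 6764 stood higher and 6926 lower. The median of the list was 0.22, where the median of all genes was 0.00. Cdc6 and Cdc25c did not reach 1 FPKM in either ear dermis and were not counted there. Whether such shifts exceed the variation between animals cannot be known from 1 library per group.

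In Koa ear epidermis the lowest ratio to WT was that of cyclin E1, Ccne1, 4.46 against 7.68 FPKM (0.581, 0.501 to 0.670). Tk1 stood at 21.6 against 35.9 FPKM (0.601, 0.555 to 0.651), Birc5 at 29.0 against 46.2 FPKM (0.626, 0.573 to 0.685) and Mki67 at 41.8 against 52.2 FPKM (0.8, 0.783 to 0.817). Top2a was nearer to WT, at 51.5 against 56.7 FPKM (0.908, 0.883 to 0.933), as was Ube2c, at 27.7 against 30.2 FPKM (0.919, 0.833 to 1.01). S phase and mitosis genes had the same median ratio, 0.752. The 9 markers of growing hair epithelium moved the other way, 8 of them higher in Koa by the size rule, where 2.15% of all genes were higher. Their summed level was 180 FPKM in Koa and 28.8 in WT ear epidermis. Krt71, Krt73, Krt31 and Krt85 lay under 1 FPKM in WT, so these were kept through Koa alone and could not come out lower. None of these 9 was at 0 in these epidermal libraries.

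In Koa ear dermis the centromere genes had both the highest and the lowest linear ratio to WT, whereas on the log2(FPKM + 1) scale Bub1b (0.61) and Ccnb2 (0.60) lay above Cenpf (0.55). Cenpf, a protein of the outer kinetochore, stood at 2.21 FPKM in Koa and 1.19 in WT (ratio 1.85, 1.65 to 2.08), while Cenpa stood at 6.0 and 9.02 FPKM (0.666, 0.568 to 0.777). Of the best known markers, Mki67 stood at 9.0 against 7.12 FPKM (1.26, 1.2 to 1.33) and Top2a at 10 against 6.67 FPKM (1.5, 1.39 to 1.61). Over all 40 genes, the median ratio was 1.29 for mitosis genes, of which 20 of 24 were higher in Koa, and 1.04 for S phase genes, of which 9 of 16 were. Among S phase genes Cdc45 (3.58 and 4.54 FPKM), Mcm3 (12.3 and 13.8 FPKM), Mcm4 (12.8 and 16.2 FPKM) and Mcm6 (18.0 and 20.2 FPKM) stood lower in Koa. Basal keratinocyte markers were higher in Koa ear dermis for 4 of 8 genes by the size rule, and growing hair markers for 8 of 9. Of all genes 1.71% were higher. The growing hair markers summed to 51.6 against 2.77 FPKM, with Krt31 at 0 in WT ear dermis. There all but Msx2 lay under 1 FPKM, and those genes were kept through Koa alone and could not come out lower. The part of both marker lists in the mitosis values was not tested.

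Set side by side, the libraries followed 1 order in epidermis and nearly its reverse in dermis. In epidermis 34 of 40 genes had the order WT ear, Koa ear, WT back from high to low. In dermis 29 of 40 had the order WT back, Koa ear, WT ear, and 25 genes had both. With equal totals these counts were 37, 25 and 23, and by median ratio 33, 31 and 25. How many of all genes have these orders was not counted, so the counts have no general share beside them. The 8 genes of dermis with Koa below WT ear but the back highest were Mcm6, Rrm1, Tyms, Ccne1, Cdc25c, Aurka, Bub1 and Cenpa. The summed basal keratinocyte markers (775, 1930 and 6390 FPKM) increased in that same order over WT ear, Koa ear and dorsal dermis. So did the sums of T cell and Langerhans cell markers (52.4, 112 and 225 FPKM, Epcam included) and of stress genes (360, 449 and 4390 FPKM). Growing hair markers did not (2.77, 51.6 and 33.9 FPKM). The sums of mast cell markers (424, 155 and 85.2 FPKM) and fibroblast markers (9850, 8430 and 5670 FPKM) ran the opposite way. The fibroblast sum was mostly Dcn (7830, 6270 and 3670 FPKM), and of its other genes Lum alone fell in that order. Dpt (412, 553 and 891 FPKM) and Fbln1 (19.4, 32.6 and 73.6 FPKM) increased instead. Pdgfra, Pdgfrb, Col5a1 and Thy1 were highest in Koa ear dermis.

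The difference between back and WT ear can be set against itself in the 2 layers, since the 2 comparisons share no library. Of the 40 genes, 34 were higher on the back in dermis and lower in epidermis, and none showed the opposite pattern, where 12.5% of 12146 genes kept in both layers did the former. Between Koa and WT ear the same pattern was shown by 26 of 38 genes, where 15.6% of 11514 genes did, again with none opposite. Both contrasts subtract the same WT ear dermis and WT ear epidermis libraries, so the second count is not independent of the first. The first count was 34 under both other scalings.

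**Figure D4:**
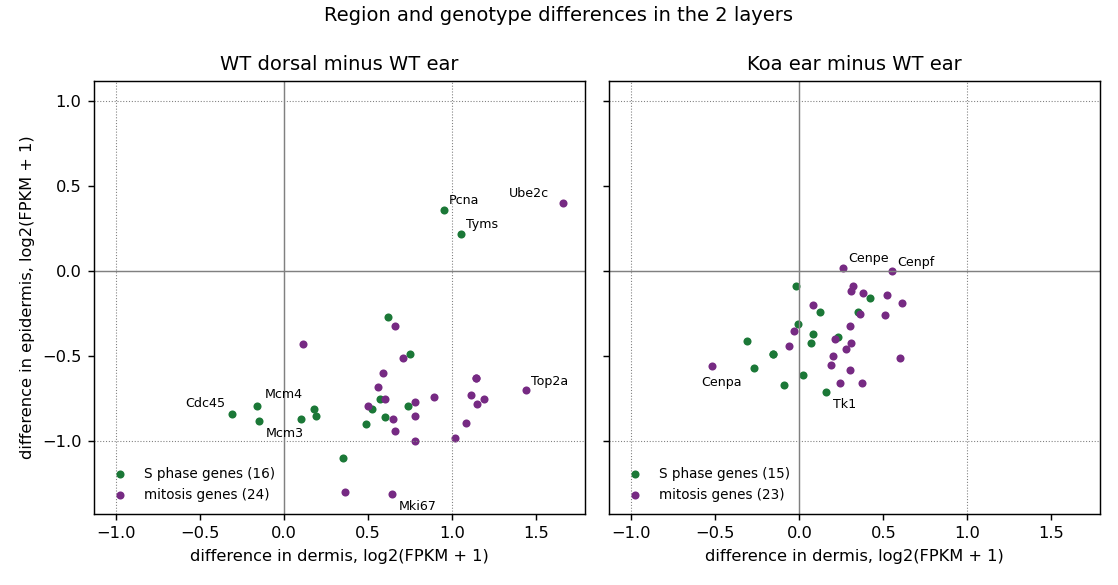
Difference from WT ear on the log2(FPKM + 1) scale in dermis (horizontal) and in epidermis (vertical) for WT back (left, 40 genes) and Koa ear (right, 38 genes), with dotted lines at the size rule of 1. Most genes lie in the lower right corner (34 of 40 and 26 of 38), with Pcna, Tyms and Ube2c above 0 on both axes in the left panel.

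Tail dermis had the lowest level of all libraries for 39 of the 40 genes, but its column differs from the others. It is given to 2 decimals, and it lists at 0 some 222 symbols that have 10 FPKM or more in each of the 6 other libraries, none of them among the 40 genes. Mki67 stood at 2.11 FPKM in tail dermis, Top2a at 3.48, Cdk1 at 1.15 and Pcna at 56.8 FPKM, and 10 genes lay under 1 FPKM. By the size rule 11 of 37 genes were lower than in WT ear dermis, where 27.0% of all 13666 genes were lower and 6.32% higher, and 34 of 40 were lower than in dorsal dermis, where 29.0% of all 14063 genes were lower and 7.05% higher. The median of all genes was -0.51 and -0.48 in these comparisons, and relative to it the medians of the list were -0.25 and -0.94. With scaling by median ratio 11.9% of all genes were higher and 16.1% lower than in WT ear dermis (6.32% and 27.0% as deposited), and 5 genes of the list were lower and 1 higher. Against dorsal dermis 26 of 40 were lower by median ratio, where 12.6% of all genes were higher and 21.7% lower, and 27 with equal totals, where 11.1% were higher and 22.6% lower. Tyms was the exception, at 6.04 FPKM in tail dermis, above 3.22 FPKM in WT ear dermis. Against WT ear dermis the share of all genes that were lower is near that of the list, so that count is no result about these genes. Basal keratinocyte markers summed to 131 FPKM in tail dermis, the least of the 7 libraries.

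Other genes of replication and mitosis, taken from lists of 27 and 40 genes, were counted in the same comparisons. In the WT ear 22 of 27 replication genes (median difference 1.56) and 38 of 40 mitosis genes (2.25) were higher in epidermis than in dermis by the size rule and none lower, where 14.4% of all genes were higher. Among them Uhrf1, which maintains DNA methylation behind the fork, stood at 39.2 and 4.38 FPKM, and Stmn1, the microtubule regulator stathmin, at 243 and 24.4 FPKM. On the back 3 of 27 (0.66) and 10 of 40 (0.77) were higher in epidermis, where 8.27% of all genes were, so that the replication count is near the general share. With equal totals no gene of either list was higher there, and by median ratio 1 and 7 were. Between dorsal and WT ear epidermis 11 of 27 (-0.88) and 13 of 40 (-0.77) were lower, where 5.47% of all genes were, and these counts were 20 and 25 with equal totals and 8 and 8 by median ratio. The largest difference among the replication genes on the log2(FPKM + 1) scale, -1.67, was that of Chaf1b, a histone chaperone of replication, at 8.77 against 30 FPKM. Between dorsal and WT ear dermis 8 of 40 mitosis genes were higher (0.65), where 11.7% of all genes were, and none of 26 replication genes passed the size rule (0.10). Of both lists a single gene differed by that much between Koa and WT ears, Stmn1 in dermis (51.1 against 24.4 FPKM).

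Transcription factors of the cell cycle, activators and repressors among them, differed with these genes in part. Foxm1, an activator of mitosis genes, stood at 10.8, 7.41 and 4.6 FPKM in WT ear, Koa ear and WT dorsal epidermis, and at 2.34, 2.67 and 3.03 FPKM in the matching dermal libraries. Mybl2, B-Myb, stood at 7.19, 4.25 and 2.52 FPKM and at 1.32, 1.2 and 1.53 FPKM. E2f8, a repressor of the E2F family, stood at 9.86, 7.04 and 3.58 FPKM in epidermis and at 2.15 to 2.28 FPKM in these dermal libraries. In epidermis 12 of the 19 factors listed, these 3 among them, had the order WT ear, Koa ear, WT back from high to low (13 with equal totals, 12 by median ratio). The reverse order was held by 4, which were Myc (53.9, 62.8 and 199 FPKM), Mycn (1.99, 2.75 and 4.47 FPKM), E2f2 (3.62, 3.92 and 8.28 FPKM) and E2f5 (7.27, 9.17 and 9.44 FPKM). E2f5 left it with equal totals. Mybl1 and Lin37 were highest on the back but lowest in the Koa ear, and Lin52 was highest in WT and lowest in Koa ear. How many of all genes have each of these orders was not counted. By the size rule 4 of 19 were lower and 2 higher in dorsal than in WT ear epidermis, where 5.47% of all genes were lower and 11.5% higher. Between WT ear epidermis and dermis 5 of 19 were higher and none lower, with a median of 0.69, where 14.4% of all genes were higher and 21.3% lower. The genes E2f4 (17.1 to 24.8 FPKM in WT ear) and E2f5 (7.27 to 11.3 FPKM), which mostly repress in resting cells, did not pass it.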

How the data were processed

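The authors deposited FPKM per gene symbol. The submitters' processing notes name TopHat2 2.0.13, Cufflinks 2.2.1 and both GRCm38 and mm9 as builds; the role of each build and the annotation are not given in the sources used here. The names of 2 columns lack a letter and were matched by sample title. The members and lists were chosen with earlier results of these data known. Differences were taken on the log2(FPKM + 1) scale, which understates changes of low genes, for genes that reached 1 FPKM in at least 1 library of the pair, and a difference of at least 1 was counted. Col1a1, Col1a2 and Col3a1, which are listed at 0 in some dermal libraries, were left out. The 9 comparisons each set 1 library against 1, so no test was made. Up to 4 genes of each other list were named by size, and E2f4, E2f5 and, across libraries, the other factors and inhibitors were chosen after their values were seen.

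Fragment numbers came from the commonest ratios of values under 0.1 FPKM and from genes with 1 transcript in GENCODE, with a length offset of 202 nt. WT ear dermis was fitted on its own, where 67.2% of low values, from 791 genes and under 8 fragments, lay within 0.03 of a whole number, and the 5 others by their ratio to it, with 19.8% to 22.7% of low ratios on the commonest step. Fragments per gene used the shortest transcript with the longest coding sequence, and intervals assume whole fragments. Depth recovery was run on simulated whole fragments with 1 exact length per gene, and the size rule on known folds without noise. Both settings are simpler than the data, so these runs check the code and not the accuracy on these libraries. Promoters came from RefSeq (GRCm38.p6), 1 window per gene, the first listed for its symbol. The alternatives were pseudocounts of 0.1 and 5 FPKM, no filter, a filter of 5 FPKM, equal totals and median ratio scaling. Python 3.11.15, pandas 2.3.3, scipy 1.17.1 and matplotlib 3.10.9 were used.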

Additional observations from a re-analysis of the deposited data

Results flagged for a closer look

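The difference between WT back and WT ear went in opposite directions in the 2 layers. The median over the 40 genes was 0.65 in dermis and -0.78 in epidermis on the log2(FPKM + 1) scale, which lie 1.44 apart before rounding. The difference between Koa and WT ear did so too, at 0.22 in dermis and -0.40 in epidermis, which lie 0.61 apart. Each rests on 1 library per group, so these differences were not tested. Both subtract the same WT ear libraries and are not independent of each other.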

How the results depend on the processing

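Of the values recomputed under the alternatives, 94 stayed within 1.5 times of the value as reported (for a median, within the same factor on the linear scale) and 14 moved; no median changed its direction. Of 40 genes, the number past the size rule between dorsal epidermis and dermis was 8 as reported, 13 at a pseudocount of 0.1, 1 at 5, 0 with equal totals and 2 by median ratio. Between dorsal and WT ear dermis it was 10, then 2 at a pseudocount of 5 and 3 with equal totals. Between dorsal and WT ear epidermis it was 3, then 6 at 0.1, 1 at 5 and 32 with equal totals. Between tail and WT ear dermis it was 11, then 21 at 0.1, 1 at 5 and 6 by median ratio. Between tail and dorsal dermis it was 34, then 14 at a pseudocount of 5, where the median moved from -1.42 to -0.79. A larger pseudocount shrinks differences of low genes by construction, and scaling shifts all genes of a library by 1 factor; other causes were not tested. Leaving out a replicate was not possible with 1 library per group. No paired analysis was possible because each group has 1 library and the comparisons come from no test. The counting intervals printed for WT ear epidermis against WT ear dermis all lie above 1. Counting error is not small beside the smallest shifts between Koa and WT ears, where the epidermal intervals of Cenpe, Cenpf and Ube2c hold 1. Ratios of tail dermis have no interval. Variation between animals and preparations is not measured.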

Other observations

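The inhibitors of cyclin-dependent kinases, which hold cells out of the cycle, were divided among the libraries. Cdkn1c (p57) stood at 223 FPKM in WT ear dermis and 207 FPKM in Koa ear dermis, against 24.0 FPKM in dorsal and 25.6 FPKM in tail dermis, and at 3.21 to 4.61 FPKM in the epidermal libraries. Cdkn1a (p21), a target of p53 and of stress signals, had another pattern, at 298 FPKM in dorsal epidermis against 46.1 in WT and 60.3 in Koa ear epidermis, and at 146 FPKM in dorsal and in tail dermis against 34.9 in WT and 52.9 in Koa ear dermis. Cdkn2b (p15) was likewise higher on the back, at 17.8 against 2.87 FPKM in epidermis and 5.64 against 0.578 FPKM in dermis. These are the libraries in which the stress genes were high, and their part was not tested. Between Koa and WT ear no gene of the 16 G1 cyclins, kinases, inhibitors and pocket proteins passed the size rule in either layer. Among G1 cyclins Ccnd2 stood at 94.4, 75.1 and 33.8 FPKM in WT ear, Koa ear and WT dorsal epidermis, in the order of the cell cycle genes, while Ccnd1 stood at 57.4, 59.8 and 50.2 FPKM.

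Cdkn2d (p19) stood at 31.7 FPKM in tail dermis and at 0.258 to 0.511 FPKM in the other 6 libraries, a difference of 4.70 from WT ear dermis on the log2(FPKM + 1) scale. Given the zeros and decimals peculiar to the tail column, and with no replicate, this value stands alone.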
